A study of Mus musculus with 10 samples.

Results

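The 10 genes described here encode Notch ligands (Dll1, Dll4, Jag1 and Jag2), Notch receptors (Notch1, Notch2, Notch3 and Notch4) and the target genes Hes1 and Hey1. They were taken by gene symbol from the platform annotation, each had 1 probe set, and they are 10 of 24704 genes measured. Ligand and receptor are membrane proteins of neighbouring cells. Binding and ligand endocytosis expose the receptor to an ADAM protease and then to gamma-secretase, and the freed intracellular domain enters the nucleus, joins the DNA-binding protein RBPJ and a Mastermind coactivator, and switches on genes of the HES and HEY families. In blood vessels, Dll4, Notch1 and Notch4 are the best known components and act in arterial identity and in restraining sprouts, while Jag1 and Notch2 are known in the liver for their role in bile duct formation.

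The comparison is of the sinusoidal endothelium after the CDAA diet, which is used to produce fatty liver and fibrosis in mice, and after a control diet. The sinusoidal endothelium is the fenestrated lining of the liver's capillary-like vessels. RNA of 10 cell isolates was hybridised to Affymetrix arrays, 5 per diet. All mice were female C57BL/6N, 10 weeks old at the start and fed for 10 weeks. One group received the CDAA diet, in which 31% of calories were fat and cholesterol made up 1%, and the other, described as siblings, a control diet (Std). Each array holds cells pooled from 3 mice, taken from the nonparenchymal fraction and captured with CD146 beads, so that p-values measure the spread between pools. One label field gives a treatment of 10 days, and the 10 weeks of the other labels are used. The design text mentions a Gata4 knockout in these endothelial cells, which none of the 10 sample labels gives, and knockout animals were not analysed here. Values are log2 signals, a difference is CDAA minus Std, and a gene is said to have risen or fallen where the adjusted p of limma over all genes was under 0.05. The number of arrays limits the precision.

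The isolates carried the markers of their label together with those of other cells. The mean of 12 pan-endothelial genes was 11.37 to 11.52 in the Std arrays and 10.06 to 11.14 in the CDAA arrays, lowest in CDAA 3 and CDAA 1 (10.45), and 9 of the 12 genes fell. Of 14 sinusoidal markers, 12 fell. All 7 measured bile duct markers rose, from a list mean of 4.51 to 5.49 with Std to 7.31 to 8.17 with CDAA, as did 7 of 9 markers of recruited macrophages (4.96 to 6.22 against 7.98 to 9.45) and 7 of 12 of stellate cells and fibroblasts (5.46 to 6.00 against 6.38 to 7.90). Std 3 stood apart from the other Std arrays in neutrophil markers, with a mean of 9.79 against 4.39 to 4.91, and had the highest mean of recruited macrophage markers in its group (6.22). Of 10 hepatocyte markers 4 rose and 2 fell, and of 8 Kupffer cell markers 5 fell. None of 9 lymphocyte and 6 neutrophil markers passed limma (0 and 0 at an unadjusted p under 0.05). The neutrophil mean was nevertheless 6.09 to 6.74 in the CDAA arrays, above every Std array but Std 3. The part of these cells in the results below was not tested unless a value is given. In such isolates fewer cells of a type and less RNA per cell cannot be told apart.

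Of the 10 genes, 4 fell (Dll4, Dll1, Notch1 and Notch4), 2 rose (Notch2 and Jag1) and 4 did not pass (Jag2, Notch3, Hes1 and Hey1). Over all genes 16.6% passed, 7.49% higher and 9.13% lower, and among genes whose mean signal lay above the median of all genes, as it did for 9 of the 10, 29.8% passed. For 4 of the 10 the arrays of the diets did not overlap, against 13.9% of all genes. The median difference was -0.17 for the 10 genes and -0.02 for all genes.

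**Figure D1:**
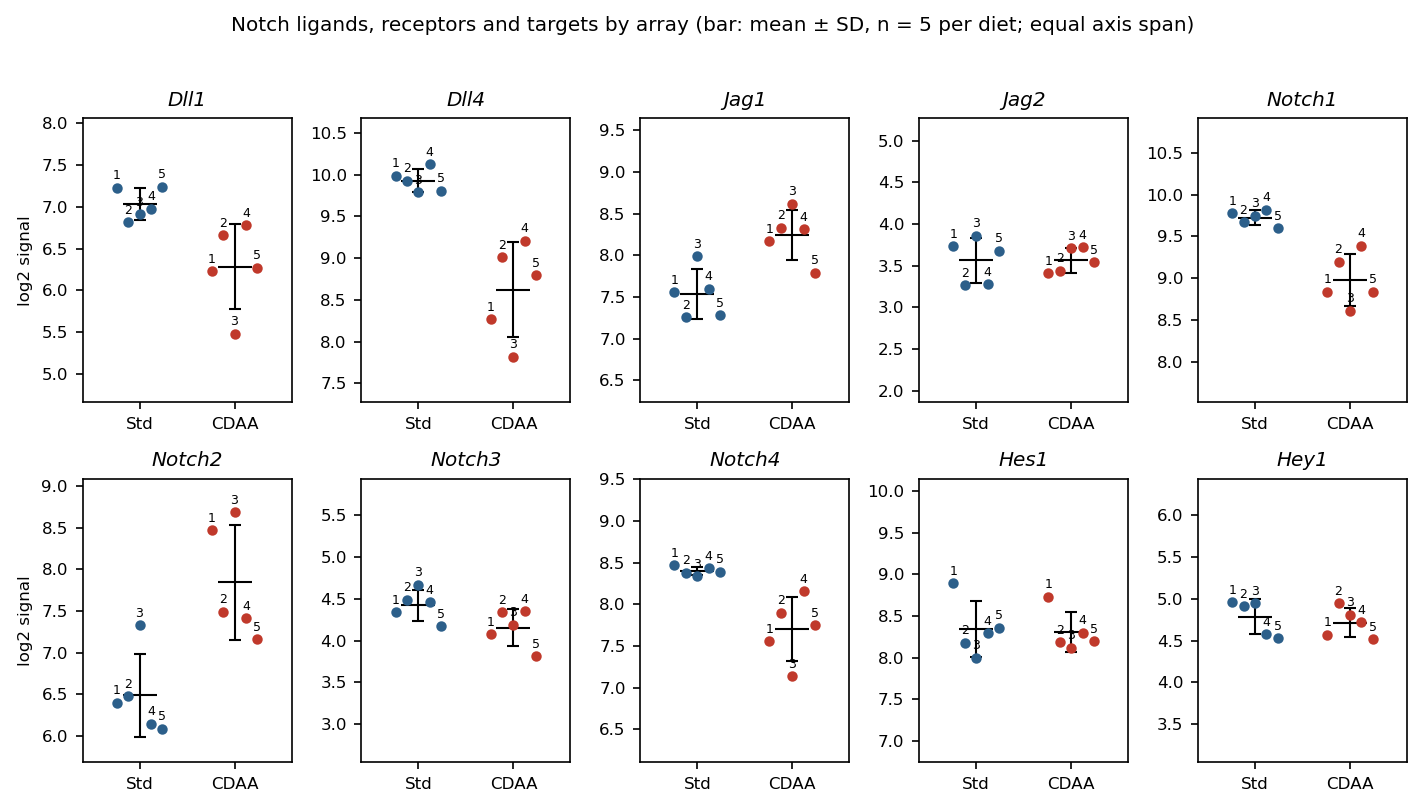
Log2 signal of each of the 10 genes on every array, with replicate numbers beside the points and the mean ± SD of 5 arrays per diet, on y axes of equal span. All 5 CDAA points lie below all 5 Std points for Dll1, Dll4, Notch1 and Notch4, and CDAA 3 is the lowest CDAA array in each of these panels and the highest for Notch2 and Jag1.

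Among the ligands, Dll4 fell most. This ligand of arterial and capillary endothelium (probe set 54485_at) was at 9.99, 9.93, 9.79, 10.13 and 9.81 in Std 1 to Std 5 and at 8.27, 9.01, 7.82, 9.21 and 8.80 in CDAA 1 to CDAA 5. The Std arrays lay close together, while the CDAA arrays were spread out and all lower. The difference was -1.31 ± 0.22 (SE, n = 5 per diet, limma adjusted p = 0.00223), 2.47-fold lower, with a 95% interval from -1.80 to -0.82. It passed when any 1 array was left out (-1.45 to -1.11) and without both CDAA 1 and CDAA 3 (-0.92, limma adjusted p = 0.00145).

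Dll1 (13388_at), a ligand of the same Delta-like class, read 7.23, 6.82, 6.91, 6.98 and 7.24 in Std 1 to Std 5, and 6.23, 6.66, 5.48, 6.78 and 6.27 in CDAA 1 to CDAA 5. The ranges came close, with CDAA 4 just under Std 2, and CDAA 3 lay far below the rest. Dll1 fell by 0.75 ± 0.21 (limma adjusted p = 0.0286). The call was lost when CDAA 1, CDAA 5, Std 1, Std 4 or Std 5 was left out, at -0.77 to -0.70 and limma adjusted p of 0.0529 to 0.0716, and without CDAA 1 and CDAA 3 (-0.46, limma adjusted p = 0.0749).

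Jag1 (16449_at), the Jagged ligand whose mutation causes Alagille syndrome with too few bile ducts, went the other way. Its values were 7.56, 7.26, 7.99, 7.60 and 7.28 in Std 1 to Std 5 and 8.17, 8.33, 8.62, 8.31 and 7.79 in CDAA 1 to CDAA 5. The diets overlapped only through Std 3, the highest Std array, and CDAA 5, the lowest CDAA array. Jag1 rose by 0.71 ± 0.17 (limma adjusted p = 0.0136, interval 0.34 to 1.08), 1.63-fold. Without Std 3 the rise was 0.82, and without CDAA 1 and CDAA 3 the difference was 0.61 and did not pass (limma adjusted p = 0.0678). The second Jagged gene, Jag2 (16450_at), had means of 3.57 ± 0.27 with Std and 3.56 ± 0.15 with CDAA (SD, n = 5), under the median of all genes (3.88), so that its signal is not known to lie above background. The 95% interval of its difference ran from -0.29 to 0.29.

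The opposite diet differences of Jag1 and Dll4 were also read as the difference between the genes on each array. Jag1 minus Dll4 was -2.66 to -1.80 in the Std arrays and -1.01 to 0.80 in the CDAA arrays, a change of 2.01 in their log2 ratio. The ratio itself compares 2 probe sets and carries no meaning as a level. Only its change between the diets is read here, as a description without a test, since both genes were known to move. The value was highest in CDAA 3. As deviations from the diet means, Dll4 and Jag1 correlated at -0.313 over the 10 arrays and at 0.293 without CDAA 1 and CDAA 3.

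The stretch of 250 bases before the transcription start of Dll4 and of Jag1 is shown because these ligands moved in opposite directions. The sequences are RefSeq's for GRCm38.p6, read 5′ to 3′ along the gene, at chr2:119325534-119325783, plus strand, and at chr2:137116521-137116770, minus strand. Capitals mark GGAA on either strand (read TTCC on the other), the core that endothelial ETS factors recognise.
Dll4: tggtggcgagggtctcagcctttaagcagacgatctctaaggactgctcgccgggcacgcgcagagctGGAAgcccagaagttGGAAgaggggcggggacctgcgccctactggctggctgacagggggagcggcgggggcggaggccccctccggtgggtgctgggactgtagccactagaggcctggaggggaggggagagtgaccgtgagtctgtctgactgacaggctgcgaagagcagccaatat
Jag1: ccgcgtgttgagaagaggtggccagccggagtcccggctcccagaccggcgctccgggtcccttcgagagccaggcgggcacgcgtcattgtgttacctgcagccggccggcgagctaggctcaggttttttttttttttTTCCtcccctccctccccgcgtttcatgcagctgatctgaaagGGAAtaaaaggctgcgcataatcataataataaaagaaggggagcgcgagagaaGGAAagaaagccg
GGAA was present 2 times before Dll4 and 3 times before Jag1, which sets neither apart, since 93.4% of 32851 promoters hold it. The GC box GGGCGG, searched on both strands like every motif here, was present before Dll4 (160 and 113 bases before the start) and not before Jag1, and 32.7% of promoters hold it. Neither stretch held GTGGGAA, the RBPJ motif (5.42% of promoters), the GATA motif AGATAA (9.99%) or the E-box CACGTG (6.02%). None of the 9 promoters of the 8 genes of the set that the table lists held any of these last 3. That says only that these letters are not in these windows.

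Among the receptors, the endothelial pair Notch1 and Notch4 fell by similar amounts. Notch1 (18128_at), the main receptor of arterial specification, was at 9.78, 9.67, 9.75, 9.82 and 9.60 in Std 1 to Std 5 and at 8.84, 9.20, 8.61, 9.39 and 8.84 in CDAA 1 to CDAA 5. The Std values were tight and all higher than any CDAA value. Notch1 fell by 0.75 ± 0.14 (limma adjusted p = 0.00346), 1.68-fold. Notch4 (18132_at), a receptor expressed mainly by endothelium, was at 8.47, 8.38, 8.34, 8.43 and 8.39 in Std 1 to Std 5 and at 7.56, 7.90, 7.14, 8.16 and 7.75 in CDAA 1 to CDAA 5. Again no array overlapped, and CDAA 3 was lowest and CDAA 4 highest, the order seen for Notch1, Dll4 and Dll1 too. Notch4 fell by 0.70 ± 0.16 (limma adjusted p = 0.00984). Both receptors passed when any 1 array was left out and without CDAA 1 and CDAA 3 (-0.58 and -0.47, limma adjusted p = 0.0180 and 0.0224). Notch4 minus Notch1 was -1.32 ± 0.08 with Std and -1.28 ± 0.14 with CDAA (SD, n = 5), a change of 0.04 that is smaller than either spread.

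Notch2 (18129_at), the receptor known from bile duct formation and from myeloid and B cells, rose. Its values were 6.40, 6.48, 7.33, 6.15 and 6.09 in Std 1 to Std 5 and 8.47, 7.49, 8.68, 7.41 and 7.16 in CDAA 1 to CDAA 5. CDAA 1 and CDAA 3 were far above the other CDAA arrays, and Std 3 reached into the CDAA range. The rise was 1.35 ± 0.32 (limma adjusted p = 0.0119, interval 0.66 to 2.04), 2.55-fold. Without Std 3 it was 1.56. Without CDAA 1 and CDAA 3 the difference was 0.86, less than the full value by a factor of over 1.5, and just missed the threshold (limma adjusted p = 0.0537). Those 2 arrays and Std 3 also had the highest means of recruited macrophage markers in their groups, at 9.23, 9.45 and 6.22. The same arrays had the highest neutrophil means of their groups, at 6.70, 6.74 and 9.79. Within Std, the recruited macrophage markers Ly6c2 and Itgam spread widely (SD 1.77 and 1.75), and the others in that list little (SD 0.18 to 0.46). Which cells gave the 6.22 of Std 3 was not tested. Among the CDAA arrays, bile duct markers were highest in CDAA 1 (8.17) and CDAA 3 (7.92). So were the means of stellate cell markers (7.69 and 7.90) and of hepatocyte markers (7.63 and 8.11). The part of these cells in the Notch2 signal was not tested.

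Notch3 (18131_at), the receptor of pericytes and smooth muscle, had means of 4.42 ± 0.18 with Std and 4.15 ± 0.22 with CDAA (SD, n = 5), close to the median of all genes. The difference was -0.27, with a 95% interval from -0.55 to 0.01 (limma adjusted p = 0.192), while 7 of 12 stellate cell and fibroblast markers and 1 of 6 smooth muscle markers (Tagln) rose.

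The promoters of the receptors that moved are shown for the same reason, with GGAA in capitals. They lie at chr2:26503823-26504072, minus strand (Notch1), at chr17:34564045-34564294, plus strand (Notch4), and at chr3:98013288-98013537, plus strand (Notch2).
Notch1: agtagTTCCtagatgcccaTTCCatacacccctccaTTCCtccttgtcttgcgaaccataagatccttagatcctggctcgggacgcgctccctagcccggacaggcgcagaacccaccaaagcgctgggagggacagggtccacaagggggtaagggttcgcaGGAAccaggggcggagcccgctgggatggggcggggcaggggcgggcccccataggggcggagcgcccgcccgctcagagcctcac
Notch4: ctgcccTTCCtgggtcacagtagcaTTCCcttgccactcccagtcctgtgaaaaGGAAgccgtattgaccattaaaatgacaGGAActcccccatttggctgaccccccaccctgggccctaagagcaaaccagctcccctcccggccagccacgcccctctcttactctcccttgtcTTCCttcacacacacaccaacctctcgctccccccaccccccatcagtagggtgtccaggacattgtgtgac
Notch2: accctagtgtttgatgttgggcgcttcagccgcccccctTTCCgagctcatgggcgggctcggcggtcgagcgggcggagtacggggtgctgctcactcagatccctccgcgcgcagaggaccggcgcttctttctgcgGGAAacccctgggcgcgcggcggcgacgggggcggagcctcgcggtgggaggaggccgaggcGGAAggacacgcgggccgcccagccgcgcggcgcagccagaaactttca
Notch1, Notch4 and Notch2 held GGAA 4, 5 and 3 times. The GC box was present 5 times before Notch1 and 5 times before Notch2 and 0 times before Notch4, so it does not sort the receptors by direction.

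Neither target gene passed the threshold. Hes1 (15205_at), a repressor switched on by Notch in many tissues, was at 8.89, 8.18, 8.0, 8.29 and 8.36 in Std 1 to Std 5 and at 8.73, 8.19, 8.12, 8.30 and 8.20 in CDAA 1 to CDAA 5. The arrays of the diets were interleaved, with replicate 1 the highest in both. The difference was -0.03 with a 95% interval from -0.40 to 0.33 (limma adjusted p = 0.929). Hey1 (15213_at), a target in endothelium, was at 4.96, 4.91, 4.95, 4.58 and 4.53 in Std 1 to Std 5 and at 4.57, 4.95, 4.81, 4.72 and 4.52 in CDAA 1 to CDAA 5, a difference of -0.07 with an interval from -0.34 to 0.20 (limma adjusted p = 0.775). Its signal was in the lower part of the range, where a change in transcript can be understated. These intervals do not show that the targets were equal in the diets.

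**Figure D2:**
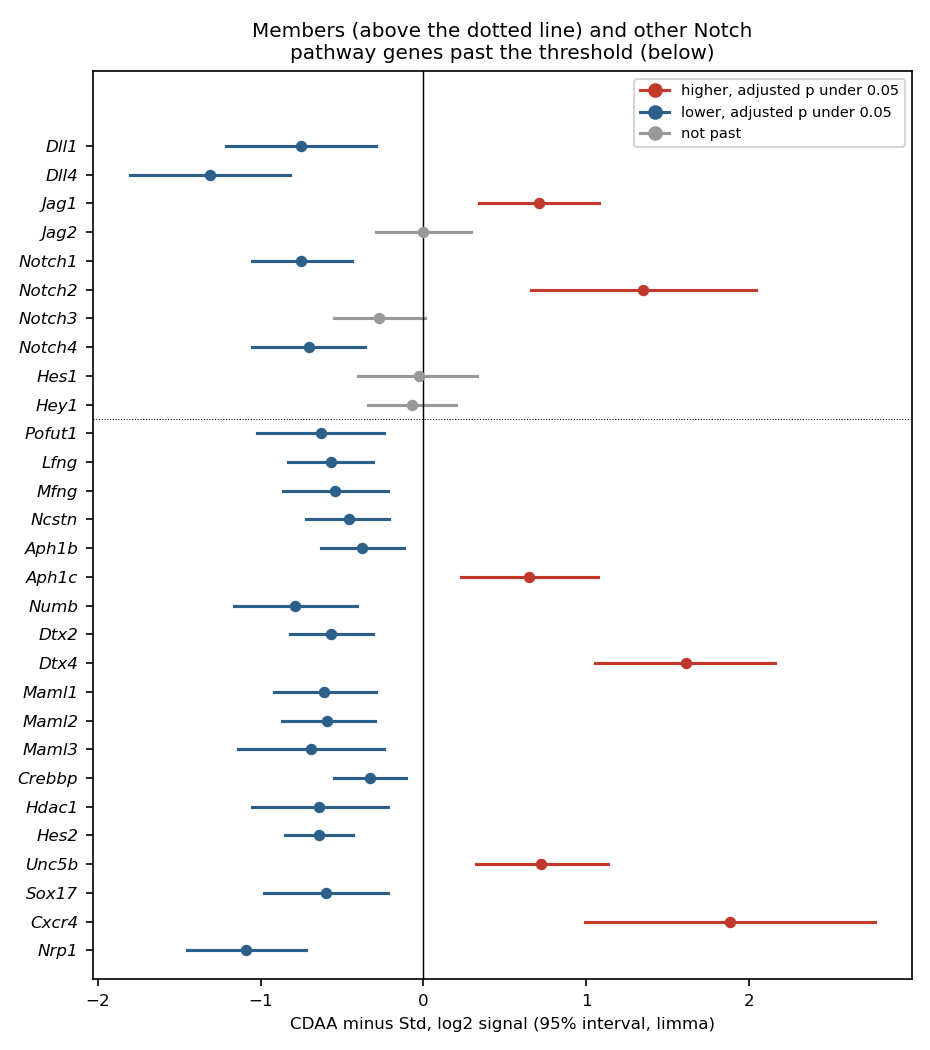
CDAA minus Std difference in log2 signal with its 95% limma interval for the 10 genes and for the 19 other Notch pathway genes past the threshold. Delta-like ligands, Notch1, Notch4 and 15 pathway genes lie left of 0, while Notch2, Jag1, Dtx4, Cxcr4, Unc5b and Aph1c lie to the right.

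The 4 genes that fell moved with the general endothelial signal of each array, and Dll4 fell further than the pan-endothelial mean. Across the 10 arrays, as deviations from the diet means, the correlation with the pan-endothelial mean was 0.993 for Dll4, 0.986 for Notch4, 0.903 for Notch1 and 0.900 for Dll1. These are descriptions without a p, since all genes of an array share its cell mixture. Without CDAA 1 and CDAA 3 (8 arrays) they were 0.952, 0.955, 0.930 and 0.641. Notch2 ran against that mean at -0.751 and with the recruited macrophage mean at 0.937 (-0.0842 and 0.844 without the 2 arrays). With the bile duct, stellate and hepatocyte means Notch2 was at 0.637, 0.459 and 0.623 (0.494, -0.56 and -0.055 without the 2 arrays). With the smooth muscle and the lymphatic and large vessel means it was at 0.165 and -0.11 (0.742 and 0.827 without the 2 arrays). Jag1 was at 0.467 and 0.172 with these means (0.782 and 0.749 without the 2 arrays). With the neutrophil mean, Notch2 was at 0.653 and Jag1 at 0.66 (0.898 and 0.714 without the 2 arrays). The neutrophil mean of Std 3 (9.79) lay far above those of the other Std arrays (4.39 to 4.91), so that array weighs heavily in these values. Correlations without Std 3 were not computed. For Jag1 the correlations with the pan-endothelial and recruited macrophage means were -0.303 and 0.587. Without the 2 arrays the first of these turned to 0.422 and the second was 0.540, so the sign of the relation of Jag1 to the pan-endothelial mean rests on those arrays.

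The pan-endothelial mean itself was lower by 0.75 with CDAA. Its 12 genes differed by -1.34 (Flt1) to -0.36 (Egfl7), a range that holds Dll4 (-1.31). The 14 sinusoidal markers differed by -2.34 to -0.41. When the pan-endothelial mean was subtracted from every gene of its array, the median of all genes moved from -0.02 to 0.73. This fit was added after seeing the data, and its differences are relative to endothelial genes. Dll4 minus the pan-endothelial mean was -1.51, -1.49, -1.59, -1.39 and -1.57 in Std 1 to Std 5 and -2.19, -1.96, -2.24, -1.93 and -2.0 in CDAA 1 to CDAA 5. Every CDAA array was below every Std array, and the spread within CDAA was far smaller than for Dll4 alone. The difference was -0.55 ± 0.17 (limma adjusted p = 0.0108), and 0.478% of all genes were lower in this fit. That share is kept small by the shift of the median of all genes to 0.73. For Notch1, Notch4 and Dll1 the difference relative to that mean was near 0 and did not pass, at 0.01 (interval -0.37 to 0.38), 0.05 (-0.31 to 0.41) and 0.00 (-0.39 to 0.39). Jag1 and Notch2 were higher relative to it by 1.46 ± 0.27 and 2.10 ± 0.41 (limma adjusted p = 0.00111 and 0.00146), where the median of all genes stood at 0.73. Jag2, Hes1 and Hey1 (0.75, 0.72 and 0.68) passed as higher too, at no more than about that median.

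When that mean entered as a covariate instead, which lets each gene take its own slope, none of the 10 genes passed limma (1 at an unadjusted p under 0.05), against 0.923% of all genes. The Dll4 estimate was then -0.31 with an interval from -0.59 to -0.03 (limma adjusted p = 0.332), that of Jag1 was 0.49 and that of Notch2 0.26. Diet accounted for 64.7% of the variance of this covariate, so the fit has little room to separate the 2. Without CDAA 1 and CDAA 3, where 10.6% of all genes passed, 3 of the 10 fell (Dll4, Notch1 and Notch4) and 0 rose, while 6 had an unadjusted p under 0.05.

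**Figure D3:**
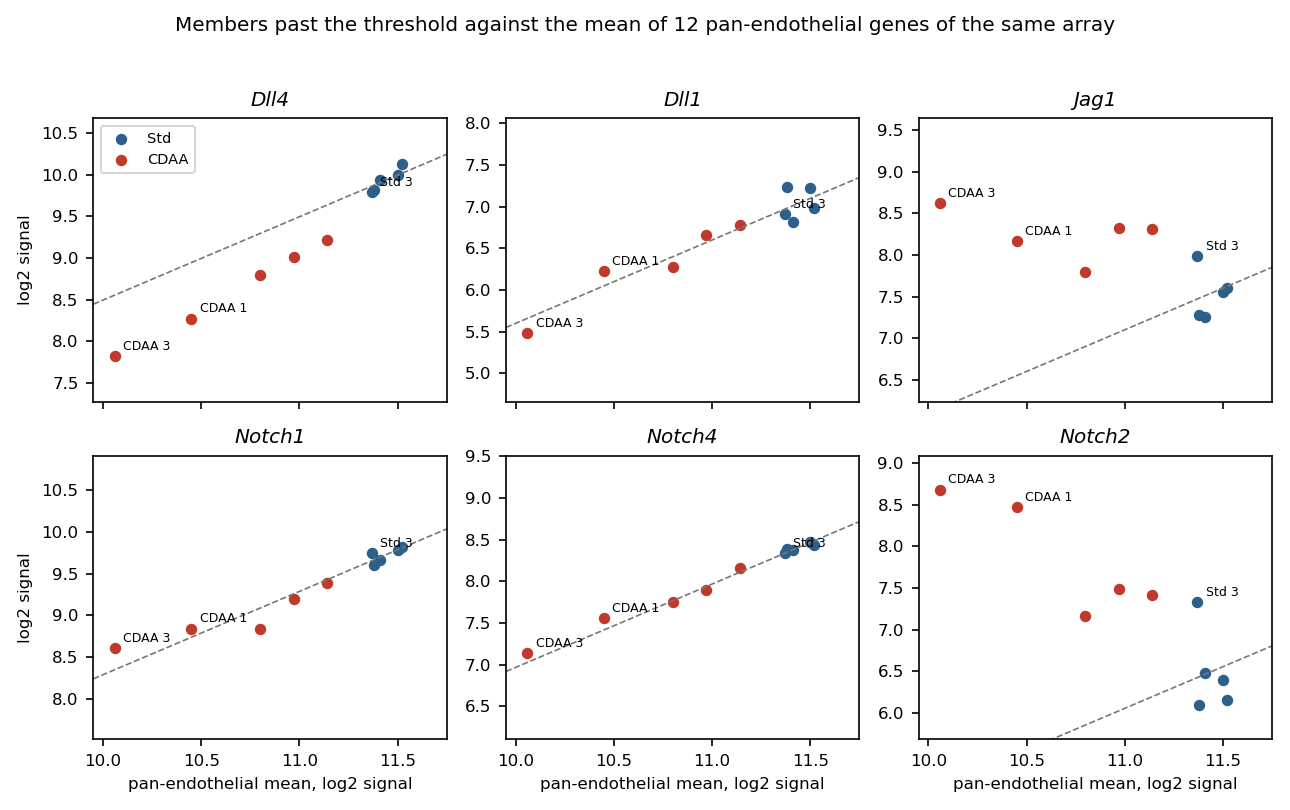
Log2 signal of the 6 genes past the threshold against the mean log2 signal of 12 pan-endothelial genes on the same array, 1 point per array. The dashed line has a slope of 1 through the Std mean. CDAA points of Notch1, Notch4 and Dll1 lie along it, those of Dll4 lie below it, and those of Jag1 and Notch2 lie above it.

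**Figure D4:**
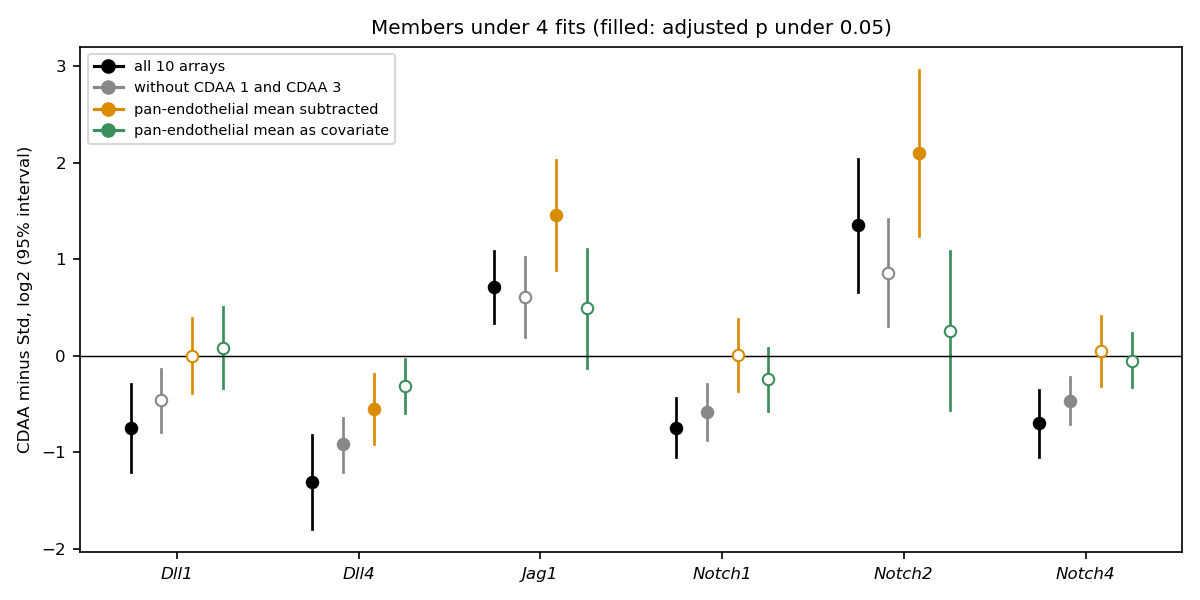
CDAA minus Std difference with its 95% interval for the same 6 genes in 4 fits, filled where the limma adjusted p was under 0.05. Dll4 is below 0 in all 4 fits drawn (-1.31, -0.92, -0.55 and -0.31). Notch1, Notch4 and Dll1 are near 0 once the pan-endothelial mean is subtracted. Not drawn are fits with the bile duct, stellate or recruited macrophage mean as covariate, where Dll4 was at 0.1, -0.21 and 0.63, none past the threshold.

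The genes whose deviations from the diet means were most like those of each gene over the 10 arrays were named by their Pearson correlation, as a description. For Dll4 they were Mrc1 (0.994), itself 1 of the 14 sinusoidal markers, Nbea (0.992) and the arterial ephrin Efnb2 (0.990). For Notch4 they were Adgrg3 (0.992), the endothelial phosphatase Ptprb (0.986), itself 1 of the 12 pan-endothelial genes, and Mb21d2 (0.985). Notch1 was closest to the gamma-secretase subunit Ncstn (0.985), Dcaf17 (0.982) and Crim1 (0.982), and Dll1 to Adarb1 (0.990), Rapgef1 (0.978) and Arhgef15 (0.978). The 2 genes that rose had other neighbours, Abca2 (0.962), Acvr1b (0.941) and Mgam (0.936) for Jag1 and Ano6, Arhgap9 and Adssl1 (0.976, 0.976 and 0.975) for Notch2. The diet differences of these neighbours ranged from close to that of the gene to far from it. Those of the 3 neighbours of Notch4 were -0.81, -0.80 and -0.78 beside -0.70, and Adarb1 was at -0.73 beside -0.75 for Dll1. Mrc1, Nbea and Efnb2 were at -1.0, -0.79 and -0.48 beside -1.31 for Dll4, and Abca2, Acvr1b and Mgam at 0.08, -0.22 and 0.69 beside 0.71 for Jag1.

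The rest of the pathway was read from 8 lists, with 64 genes analysed here. Of these, 15 fell and 4 rose. The share past the threshold was 29.7%, near the 29.8% of all genes with above-median signal, to which 53 of the 64 belong. The median difference was -0.18, against -0.02 over all genes. Without CDAA 1 and CDAA 3, 5 fell and 2 rose. The falls were modest, and 13 of the 15 were smaller than the 0.75 by which the pan-endothelial mean was lower.

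Sugar transferases that modify the receptors' EGF repeats and so tune which ligand they answer fell in 3 of 6 cases, and none rose. Pofut1, which adds O-fucose, fell by 0.63 ± 0.18 (limma adjusted p = 0.0321), and the Fringe enzymes Lfng and Mfng, which extend that fucose, fell by 0.57 ± 0.12 and 0.54 ± 0.15 (limma adjusted p = 0.00682 and 0.0247). Lfng was at 8.55, 8.75, 8.81, 8.78 and 8.93 in Std 1 to Std 5 and at 7.90, 8.30, 8.44, 8.05 and 8.31 in CDAA 1 to CDAA 5, without overlap. CDAA 3, lowest for Dll4 and Notch1, was here the highest CDAA array. The third Fringe, Rfng, differed by -0.15 and did not pass. Pofut1 lost its call when any of 7 single arrays was left out (CDAA 1, CDAA 3 or any Std array, -0.64 to -0.49) and Mfng when CDAA 1, Std 1, Std 4 or Std 5 was (-0.55 to -0.49). Without both CDAA 1 and CDAA 3, Pofut1 and Mfng were at -0.30 and -0.32 and lost their calls (limma adjusted p = 0.0593 and 0.0947), while Lfng kept its own at -0.55 (limma adjusted p = 0.0135).

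Lfng was the only gene past the threshold among the 7 pathway genes with the RBPJ motif GTGGGAA in the 250 bases before a start, out of 51 with a promoter in the table. Its sequence is shown for that reason, from chr5:140607091-140607340, plus strand, with the motif in capitals.
Lfng: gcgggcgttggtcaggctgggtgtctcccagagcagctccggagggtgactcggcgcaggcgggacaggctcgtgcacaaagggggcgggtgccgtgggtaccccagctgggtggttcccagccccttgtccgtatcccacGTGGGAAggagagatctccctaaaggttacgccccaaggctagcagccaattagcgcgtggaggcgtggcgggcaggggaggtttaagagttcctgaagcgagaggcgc
The match began 109 bases before the start and shares 3 bases with an E-box, CACGTG. The other genes with a match were Hes5, Hes7, Hey2, Psen2, Rbpjl and Spen, none of which passed. Of all genes 16.6% passed, and of the 64 pathway genes 29.7%, so the genes with a match showed no excess of calls. A part of the motif in the fall of Lfng was not tested.

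Of 9 measured genes for receptor cleavage, 2 fell and 1 rose. Ncstn, the gamma-secretase subunit nicastrin, fell by 0.46 ± 0.12 (limma adjusted p = 0.0181), while the sheddases Adam10 and Adam17 had differences of 0.11 and 0.27, neither past the threshold. The near-identical copies Aph1b and Aph1c, which can share signal between their probes and are therefore uncertain, moved oppositely, by -0.38 and 0.65. Aph1b lost its call in 8 and Aph1c in 7 of the 10 fits that left out 1 array, at -0.39 to -0.29 and 0.55 to 0.69. None of the 3 passed without CDAA 1 and CDAA 3 (Ncstn -0.33, Aph1b -0.41 and Aph1c 0.49, limma adjusted p = 0.0874, 0.0705 and 0.201).

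Among 10 genes of receptor trafficking and turnover, Dtx4 rose and Numb and Dtx2 fell. Dtx4, a Deltex ubiquitin ligase, was at 4.63, 4.23, 4.43, 4.57 and 4.62 in Std 1 to Std 5 and at 6.70, 5.76, 6.85, 5.33 and 5.88 in CDAA 1 to CDAA 5. No array overlapped, and CDAA 1 and CDAA 3 were again the highest, as for Notch2. The rise of 1.61 ± 0.25 (limma adjusted p = 0.00134), 3.05-fold, stands beside 1.35 for Notch2, a difference between genes that was not tested. The Std signal of Dtx4, with a mean of 4.50, is not known to lie above background, so the fold may be understated. Numb, an adaptor that antagonises Notch by receptor endocytosis, fell by 0.79 ± 0.17 and Dtx2 by 0.57 ± 0.12 (limma adjusted p = 0.00815 and 0.00626). These 3 passed whichever single array was left out and without both CDAA 1 and CDAA 3, where Dtx4 was at 1.16, Numb at -0.52, less by a factor of over 1.5, and Dtx2 at -0.44 (limma adjusted p = 0.00105, 0.0160 and 0.0286).

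In the nuclear complex, 5 of 13 measured genes fell and 0 rose. All 3 Mastermind coactivators were among them, with Maml1, Maml2 and Maml3 down by 0.61 ± 0.15, 0.59 ± 0.13 and 0.69 ± 0.21 (limma adjusted p = 0.0132, 0.00898 and 0.0383). The acetyltransferase Crebbp fell by 0.33 ± 0.10 and the deacetylase Hdac1 by 0.64 ± 0.19 (limma adjusted p = 0.0458 and 0.0385). Rbpj, the DNA-binding partner itself, had means of 4.67 with Std and 4.98 with CDAA and did not pass (0.31, limma adjusted p = 0.280). A signal at this level is not known to lie above background. Calls for Maml3, Crebbp and Hdac1 were lost in 6, 8 and 6 of the 10 fits without 1 array, at -0.71 to -0.55, -0.35 to -0.27 and -0.66 to -0.51. Without both CDAA 1 and CDAA 3 all 5 calls were lost. Maml1, Maml2 and Maml3 were then at -0.54, -0.43 and -0.42 (limma adjusted p = 0.0544, 0.0537 and 0.199), the last less by a factor of over 1.5, and Crebbp and Hdac1 at -0.33 and -0.60 (limma adjusted p = 0.126 and 0.0632).

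Of 8 further HES, HEY and Nrarp genes, only Hes2 passed. Its mean was 4.17 ± 0.10 with Std and 3.54 ± 0.14 with CDAA (SD, n = 5), a fall of 0.64 ± 0.10 (limma adjusted p = 0.00101) that ended under the median of all genes. Nrarp, a Notch-induced inhibitor of the nuclear complex, was at 7.0 to 7.30 in the Std arrays and at 5.94 to 7.15 in the CDAA arrays, with CDAA 1 and CDAA 3 far below the rest (-0.60, limma adjusted p = 0.108). Hey2 (0.28) and Heyl (0.22), at signals around the median, missed the threshold.

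Among 9 genes listed as arterial, 2 fell and 2 rose. Whether Notch favours each of them in these cells was not tested. Differences were negative for 7 of the 9, with a median of -0.48 against -0.02 over all genes. Nrp1, a coreceptor of VEGF and semaphorins, had a mean of 11.61 ± 0.13 with Std and 10.52 ± 0.39 with CDAA (SD, n = 5) and fell by 1.09 ± 0.17 (limma adjusted p = 0.0011). The transcription factor Sox17 fell by 0.60 ± 0.17 (limma adjusted p = 0.0339). Sox17 lost its call without CDAA 1, CDAA 5, Std 1, Std 4 or Std 5 (-0.60 to -0.57). The netrin receptor Unc5b rose by 0.72 ± 0.19 and the chemokine receptor Cxcr4, which leukocytes also carry, by 1.88 ± 0.41 (limma adjusted p = 0.0191 and 0.00824). Cxcr4 was at 5.55, 5.56, 7.21, 6.06 and 5.60 in Std 1 to Std 5 and at 8.64, 7.06, 8.92, 7.22 and 7.53 in CDAA 1 to CDAA 5. Std 3, the array with the neutrophil signal of 9.79, overlapped the CDAA arrays, and without it the rise was 2.18. Without CDAA 1 and CDAA 3 the calls of Nrp1 (-0.83) and Cxcr4 (1.27) held and those of Unc5b (0.53) and Sox17 (-0.35) were lost, at limma adjusted p of 0.00178, 0.0420, 0.101 and 0.104. The part of leukocytes in Cxcr4 was not tested. The connexins Gja4 and Gja5, Efnb2, Bmx and Acvrl1 missed the threshold at -0.56, -0.21, -0.48, -0.68 and -0.16.

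None of the 5 other ligands and Notch-binding proteins and none of the 4 ligases of ligand endocytosis passed limma (0 and 0 at an unadjusted p under 0.05). The smallest p of the first list was that of Egfl7, a secreted endothelial protein (10.83 ± 0.18 with Std and 10.47 ± 0.38 with CDAA, limma adjusted p = 0.188), which is also 1 of the 12 pan-endothelial genes. That of the second was Mib2 (5.90 ± 0.10 and 5.65 ± 0.32, limma adjusted p = 0.274), and Mib1, the ligase that activates Delta and Jagged ligands, differed by -0.03.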

How the data were processed

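Log2 signals of 25428 probe sets on 10 arrays were used as deposited. Per the submitters' processing notes, the authors made these log2 values with RMA, which corrects background, brings the arrays to 1 distribution (median 3.89 on each) and summarises probes. Array design, RMA version and the arrays' genome build are not given in the sources used here. Equal distributions can turn a rise of some genes into a slight fall of others. The platform annotation gave 24705 probe sets 1 gene symbol, 0 several and 723 none. Where a gene had 2 probe sets (1 gene), the brighter was kept, which left 24704 genes. No 2 arrays shared over 0.244% of values. CDAA 1 held 24921 distinct values and CDAA 2 held 10080, while sorted arrays differed by 0.00186 at most.

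The 5 arrays of each diet were compared in limma 3.58.1 under R 4.3.3 (lmFit, eBayes; two-sided tests). Adjusted p-values are Benjamini-Hochberg values over the 24704 genes, and 0.05 was the threshold. The procedure was tested on simulated data. Genes and lists were chosen with earlier results of these data known. Named were the 10 genes, every member of the 8 pathway lists past the threshold (else that with the smallest p), and the 3 genes most like each called gene among those with above-median signal. Genes such as Rfng, Adam10, Adam17, Rbpj, Nrarp, Hey2, Heyl, Gja4, Gja5, Efnb2, Mib1 and those with the RBPJ motif were added after their values were seen. Lists of 11 cell types were read beside them. Promoters come from RefSeq, GRCm38.p6, and motifs were searched on both strands of 250 bases, a choice made after the values were seen. Other fits took in the replicate block, a second quantile normalization, array medians, filters on dim genes, variance trend, array weights, mean of probe sets, marker means as covariates, and fewer arrays. Subtracting the pan-endothelial mean was added after seeing the data. Same-numbered arrays deviated together with correlations of 0.0164 to 0.249, so numbers were not taken as pairs.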

Additional observations from a re-analysis of the deposited data

Results flagged for a closer look

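Among 31 named genes in 2 diets, 1 array lay far from its group in 2 instances, where the gap to the nearest array exceeded 0.71 of the group's range, and about 1 in 20 groups does so by chance. Both concerned Mib2, a ligase of ligand endocytosis. CDAA 5 was at 5.09, below the next CDAA array at 5.69, and Std 3 was at 5.72, below the next Std array at 5.93.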

How the results depend on the processing

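Fits with quantile normalization again, array medians, filters on dim genes, variance trend, array weights or the mean of probe sets kept the counts of 2 risen and 4 fallen among the 10 genes, and 4 risen with 15 or 16 fallen among the other pathway genes, though Aph1b lost its call with variance trend and with array weights (limma adjusted p = 0.0762 and 0.0568). The replicate block gave 2 and 4, 4 and 13, and 1893 and 2285 over all genes. It moved no count by over 1.5 times and ended the calls of Aph1b and Crebbp (limma adjusted p = 0.0938 and 0.0745). Of the 5 CDAA arrays, 3 deviated most like the Std array of their own number, a hint from the data and not from the design. Leaving out 1 array gave 2 risen and 3 to 4 fallen of the 10, 3 to 5 risen and 8 to 16 fallen of the other pathway genes (9 without Std 1, 8 without Std 4 or Std 5), and 1402 to 1989 risen and 1554 to 2583 fallen over all genes. Without CDAA 1 and CDAA 3 the counts were 0 and 3, 2 and 5, and 1305 and 1307. The means of marker lists used as covariates moved with diet (64.7% to 94.4% of their variance), and with them 0 of the 10 and 0 of the other pathway genes rose or fell by limma. At an unadjusted p under 0.05 there were 1 and 9 with the pan-endothelial, 0 and 0 with the bile duct, 1 and 5 with the stellate and 1 and 7 with the recruited macrophage mean. Over all genes these fits called 158 and 70, 0 and 0 (1179 at an unadjusted p under 0.05), 34 and 13, and 8 and 74. With the pan-endothelial mean subtracted, 5 and 1 of the 10, 37 and 0 of the other pathway genes (39 at an unadjusted p under 0.05) and 19525 and 118 of all genes were higher and lower, which follows from a shift of all genes. Differences that changed sign, none of them past the threshold in a covariate fit, were as follows. With the pan-endothelial covariate they were Dll1 0.08, Egfl7 0.26, Pofut1 0.01, Mfng 0.01, Maml3 0.08, Sox17 0.12. With the bile duct covariate they were Dll1 0.02, Dll4 0.1, Jag1 -0.3, Notch2 -1.44, Notch4 0.13, Egfl7 1.19, Pofut1 0.55, Mfng 0.55, Aph1c -0.41, Dtx4 -0.41, Maml3 0.15, Sox17 0.23, Cxcr4 -1.33, Nrp1 0.07. With the stellate covariate they were Dll1 0.11, Jag2 0.13, Notch3 0.03, Notch4 0.03, Hey1 0.03, Egfl7 0.23, Pofut1 0.07, Mfng 0.06, Ncstn 0.05, Aph1c -0.03, Maml3 0.12, Unc5b -0.12, Sox17 0.17. With the recruited macrophage covariate they were Dll1 0.77, Dll4 0.63, Jag1 -0.28, Notch1 0.05, Notch2 -1.79, Notch4 0.49, Hes1 0.16, Egfl7 1.06, Pofut1 0.71, Mfng 0.59, Ncstn 0.13, Aph1c -0.65, Numb 0.4, Dtx4 -0.31, Maml3 0.99, Hdac1 0.11, Sox17 0.75, Cxcr4 -2.35, Nrp1 0.34. With the pan-endothelial mean subtracted they were Dll1 0.00013, Jag2 0.75, Notch1 0.01, Notch3 0.48, Notch4 0.05, Hes1 0.72, Hey1 0.68, Egfl7 0.39, Pofut1 0.12, Lfng 0.18, Mfng 0.21, Mib2 0.5, Ncstn 0.29, Aph1b 0.38, Dtx2 0.18, Maml1 0.14, Maml2 0.17, Maml3 0.06, Crebbp 0.42, Hdac1 0.11, Hes2 0.12, Sox17 0.15. Jag2, near 0 throughout, changed sign with array weights (0.02), without CDAA 1 and CDAA 3 (0.0038) and in fits without 1 array (-0.08 to 0.07), as did Hes1 without 1 array (-0.14 to 0.10). Apart from what the construction of a fit fixes, the cause of these changes was not tested. Signals near or under the median of all genes (Jag2, Notch3, Hey1, Hes2, Rbpj, and Dtx4 with Std) are not known to lie above background.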

Other observations

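Of 5 measured markers of lymphatic and larger vessels, 3 rose (Prox1, Pdpn and Cd34), while 12 of 14 sinusoidal markers fell. Prox1, the transcription factor of lymphatic endothelium, which hepatocytes also express, had means of 4.47 ± 0.34 with Std and 6.38 ± 0.49 with CDAA (SD, n = 5) and rose by 1.91 ± 0.23 (SE, limma adjusted p = 0.000244). Pdpn, a lymphatic and mesenchymal glycoprotein, rose by 0.98 ± 0.13 and Cd34, a marker of capillary endothelium and progenitors, by 1.37 ± 0.14 (limma adjusted p = 0.000397 and 8.61e-05). Vwf, the clotting factor stored by large vessel endothelium, was at 9.33 ± 0.40 and 9.0 ± 0.52, and Ackr1, a marker of venules, at 6.28 ± 0.33 and 6.60 ± 0.68 with Std and CDAA, neither past the threshold.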
